A study of Mus musculus with 6 samples.

Results

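The nuclear genes that encode the subunits of the mitochondrial respiratory chain and ATP synthase were described in whole lung of (AKR/J x FVB/NJ)F1 females (AKR F1) and (DBA/2J x FVB/NJ)F1 females (DBA F1). Members were all probe sets with 1 platform symbol beginning with Ndufa, Ndufb, Ndufc, Ndufs, Ndufv, Uqcr, Cox4 to Cox8 or Atp5, together with Sdha, Sdhb, Sdhc, Sdhd, Cyc1 and Cycs. Assembly factors named Ndufaf and the isoforms Cox6a2, Cox7a1 and Cox8b, which mark heart, skeletal muscle and brown fat, were left out. The rule gave 81 genes on 170 probe sets, of 18193 named genes on the array, and each gene was represented by its brightest probe set over all 6 arrays. Of these, 34 were assigned to complex I, 4 to complex II, 9 to complex III, 1 is cytochrome c, 16 to complex IV and 17 to complex V. After the filter on low signal 79 were tested, and Ndufb4 (mean signal 3.48) and Cox7b2 (2.77) were not.

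The study asked for basal differences in lung expression between the crosses, with 3 arrays per group. All parents were of inbred strains, so mice of both groups carried 1 chromosome set from FVB/NJ and differed in the other. They were adult females, killed by cervical dislocation under Avertin, and the lungs were snap frozen. Nothing in the labels says whether each array was a separate animal, so p-values measure the spread between these arrays. Signals are log2 values on Affymetrix arrays, a log2 difference is AKR F1 minus DBA F1 with its standard error (SE) from the limma fit over all 27022 tested probe sets, and a gene was called at a Benjamini-Hochberg adjusted p under 0.05. The tissue carried lung markers on every array: the mean over 8 alveolar type 2 genes lay between 12.64 and 12.76 in AKR F1 and between 12.43 and 12.58 in DBA F1. All 8 had a positive difference. Of them Sftpb (0.32), Napsa (0.34) and Lpcat1 (0.41) were called, against 2.48% of all tested genes in either direction. Median differences were also positive for alveolar type 1 (0.17), endothelial (0.20), macrophage (0.13) and lymphocyte (0.19) markers. They were negative for club cell (-0.094), ciliated cell (-0.14) and mesenchymal (-0.18) markers. Of 5 club cell markers 1 was called, lower in AKR F1, against 1.06% of all tested genes. Differences in that list reached -1.21. The part of these cell types in the respiratory chain values was not tested. Squamous epithelium markers were low on AKR F1 replicates 1 and 2, with a list mean of 4.72 and 4.62, and lay between 9.02 and 9.81 on the other 4 arrays.

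Complex I takes electrons from NADH and complex II from succinate, both pass them through ubiquinone to complex III, and cytochrome c carries them on to complex IV, where oxygen is reduced. Complexes I, III and IV pump protons, and complex V uses the resulting gradient to make ATP. Most subunits are encoded in the nucleus, the remaining ones in mitochondrial DNA, and tissues dense in mitochondria such as heart, skeletal muscle and brown fat hold the most of these transcripts. In lung, alveolar type 2 cells are comparatively rich in mitochondria.

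Respiratory chain transcripts had small, one-sided differences. Of the 79 tested genes 76 had a lower mean in AKR F1, with a median log2 difference of -0.17 and a range from -0.45 for Cycs to 0.19 for Cox7c. Over all 13202 tested genes 44.9% had a negative difference and the median was 0.015. By limma 0 of the 79 were called, against 2.48% of all tested genes in either direction and 1.06% lower in AKR F1, and the lowest adjusted p was 0.0779 (Ndufc2). At an unadjusted p under 0.05, 33 of the 79 were lower in AKR F1, against 8.41% of all tested genes. In 28 of the 79 every AKR F1 array lay below every DBA F1 array, against 10.0% of all tested genes, and in 0 of the 79 every AKR F1 array lay above, against 14.2% of all tested genes. Among the 71 members with a mean signal above 9 the AKR F1 arrays lay below in 27, against 8.36% of all tested genes above that level. In whole tissue, fewer cells of a kind that is rich in these transcripts and less of them per cell cannot be told apart.

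The size of the difference depended on which DBA F1 arrays were included. The mean signal over the 79 genes was 10.35, 10.35 and 10.36 on AKR F1 replicates 1 to 3. It was 10.59 and 10.62 on DBA F1 replicates 1 and 2 and 10.37 on DBA F1 replicate 3. The standard deviation of this mean was 0.0036 among AKR F1 arrays and 0.14 among DBA F1 arrays. DBA F1 replicates 1 and 2 both lay above the other 4 arrays in 69 of the 79 genes, a pattern seen in 10.3% of all tested genes, and DBA F1 replicate 3 was the lowest DBA F1 array in 75. Without DBA F1 replicate 3 the median difference was -0.24 and limma called 33 of the 79 genes, all lower in AKR F1, against 2.77% of all tested genes in either direction and 1.83% lower in AKR F1 in that fit. They were 13 of 33 in complex I, 4 of 4 in complex II, 7 of 9 in complex III, Cycs, 3 of 15 in complex IV and 5 of 17 in complex V. With any other single array left out 0 were called. The median was -0.13 without DBA F1 replicate 1 and -0.13 without DBA F1 replicate 2, with 69 and 71 of the 79 genes negative. DBA F1 replicate 3 differed from the AKR F1 mean by a median of 0.0086 over the 79 genes.

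**Figure D1:**
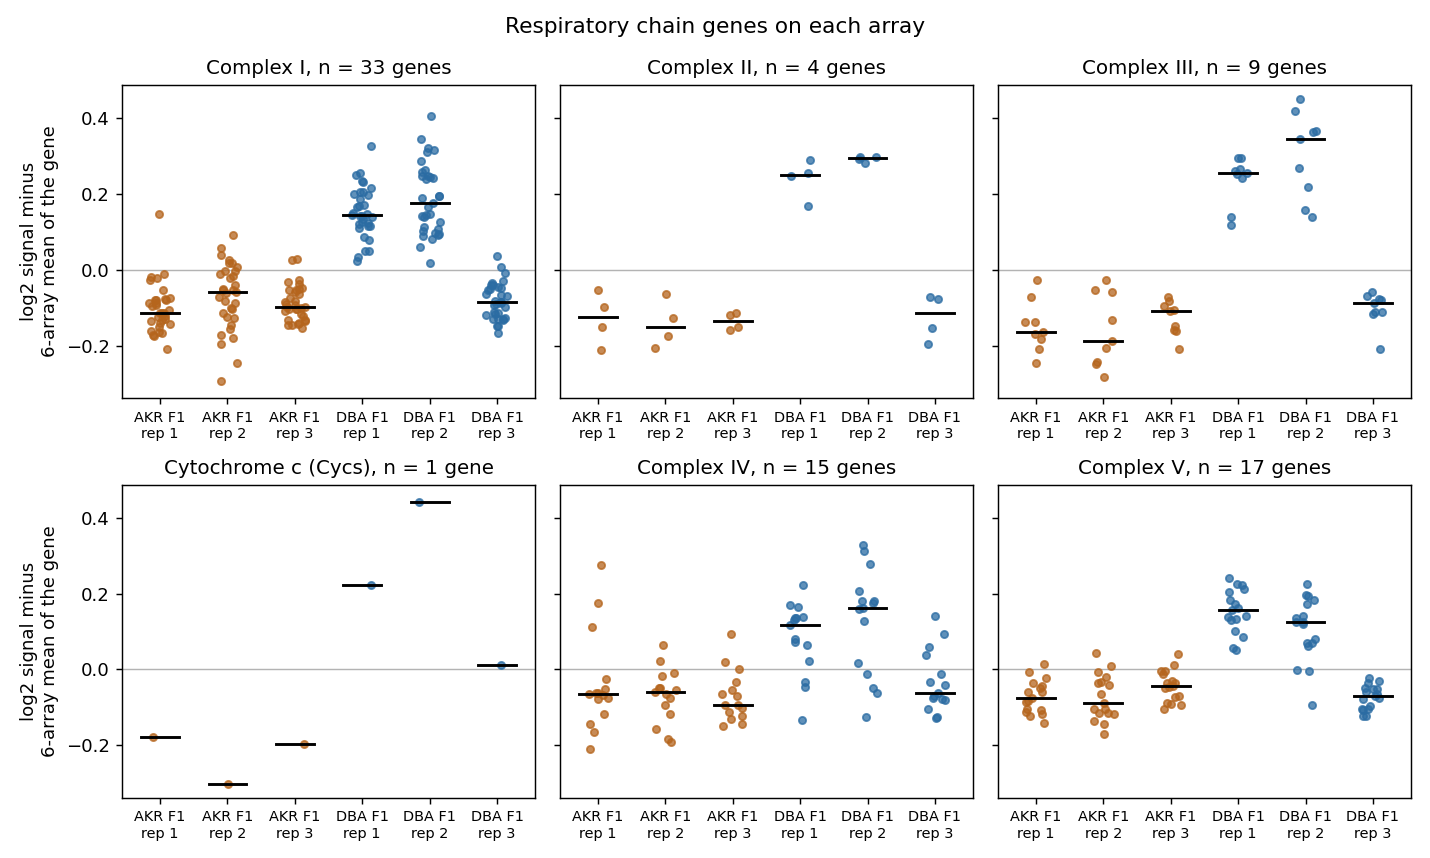
Each point is 1 tested gene on 1 array, as log2 signal minus the mean of that gene over the 6 arrays, in a panel for each complex, with AKR F1 in brown and DBA F1 in blue and the median as a black bar. In complexes I, II, III and V the points of DBA F1 replicates 1 and 2 lie mostly above 0. Those of DBA F1 replicate 3 lie mostly nearer to the AKR F1 arrays.

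Complex III and cytochrome c had the most negative median differences. The medians were -0.16 for complex I (33 tested genes), -0.26 for complex II (4), -0.35 for complex III (9), -0.45 for cytochrome c (1), -0.14 for complex IV (15) and -0.13 for complex V (17), as a description without a test between complexes. Without DBA F1 replicate 3 they were -0.23, -0.41, -0.48, -0.56, -0.22 and -0.20, and without DBA F1 replicate 2 they were -0.13, -0.18, -0.22, -0.34, -0.10 and -0.10. All tested members of complexes I, II, III and V had a negative difference, and in complex IV 12 of 15 did. DBA F1 replicate 2 was above DBA F1 replicate 1 in 23 of 33 genes of complex I, 3 of 4 of complex II, 8 of 9 of complex III and 12 of 15 of complex IV, but in 5 of 17 of complex V.

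**Figure D2:**
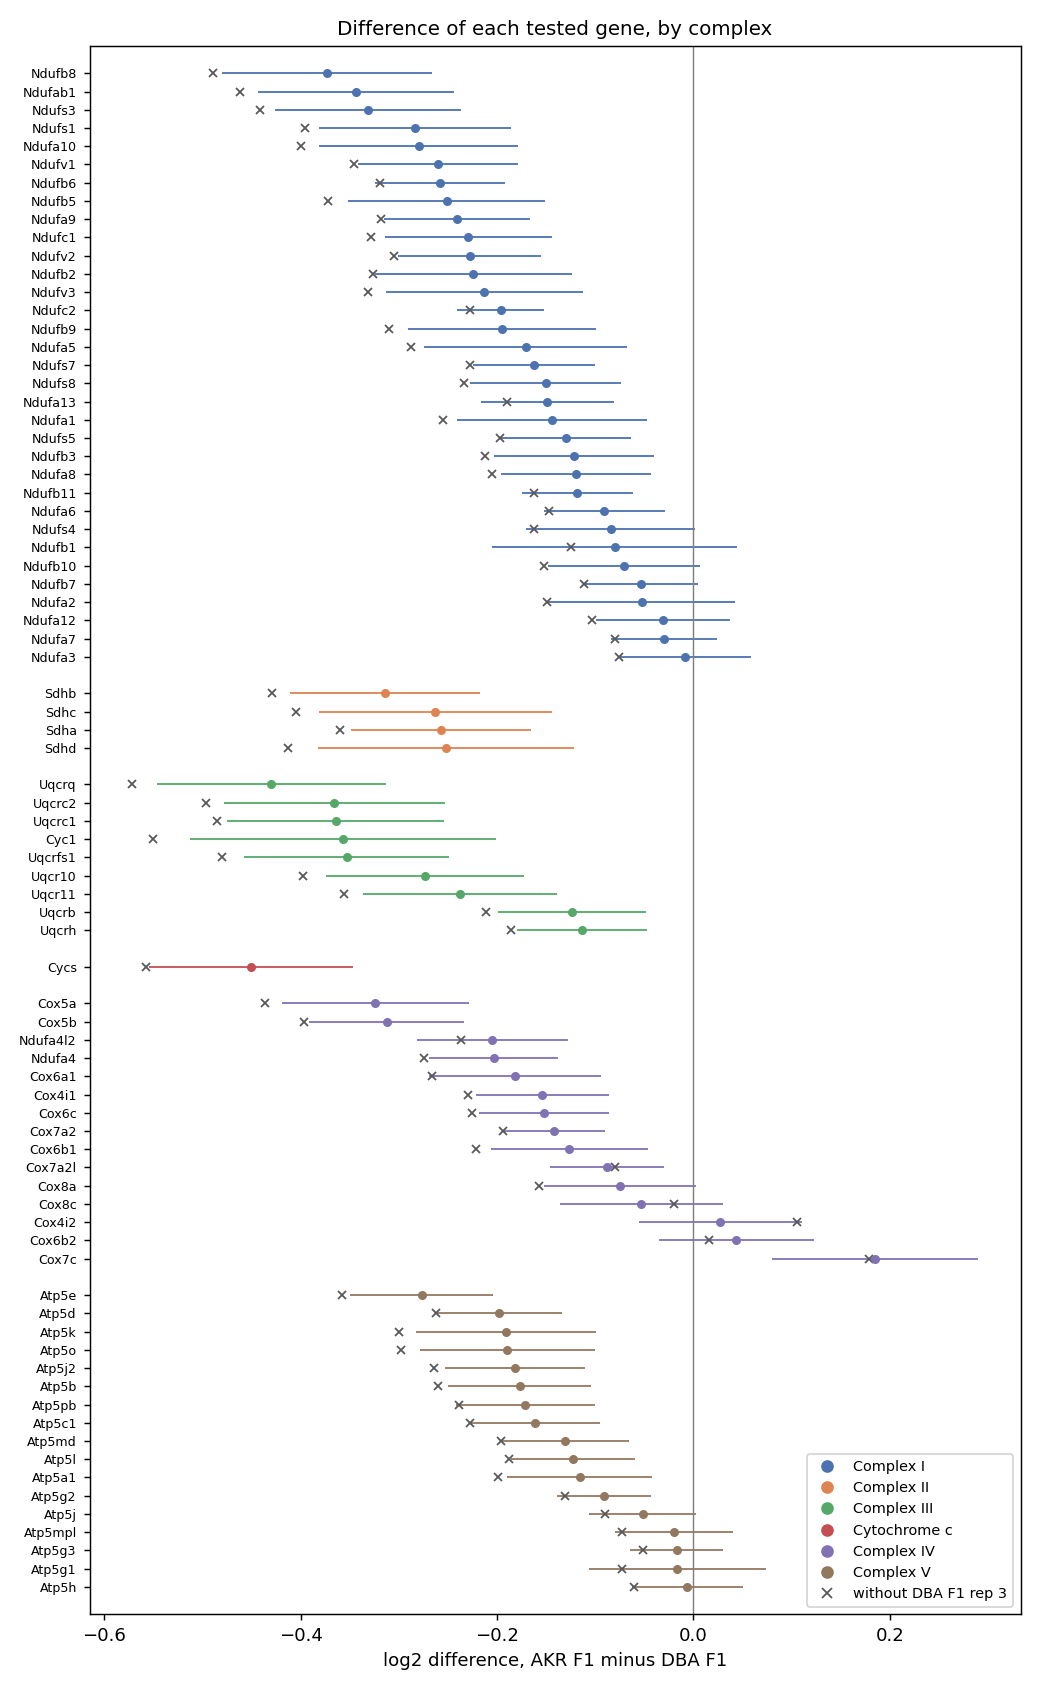
Log2 difference (AKR F1 minus DBA F1) of each of the 79 tested genes with its limma standard error as a bar, ordered within each complex and coloured by complex; crosses give the difference without DBA F1 replicate 3. Values run from -0.45 (Cycs) to 0.19 (Cox7c), and most crosses lie further from 0 than the point they belong to.

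Cycs encodes somatic cytochrome c, the soluble carrier between complexes III and IV that also activates caspases once released into the cytosol. Its signal was 10.65, 10.52 and 10.63 on AKR F1 replicates 1 to 3 and 11.05, 11.27 and 10.84 on DBA F1 replicates 1 to 3. The groups did not overlap, and DBA F1 replicate 3 lay between the AKR F1 arrays and the other DBA F1 arrays. The difference was -0.45 ± 0.10 (SE, n = 3 per group, limma adjusted p = 0.0817), or 1.37-fold higher in DBA F1. Of its other tested probe sets, 1422483_a_at differed by -0.44 and 1422484_at by -0.37, so the 3 bright probe sets gave similar sizes.

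In complex III, Uqcrq, a small subunit that binds near cytochrome b, had 10.19, 10.25 and 10.23 in AKR F1 and 10.73, 10.85 and 10.37 in DBA F1 (-0.43 ± 0.12, adjusted p = 0.121). The core proteins Uqcrc1 (-0.36 ± 0.11) and Uqcrc2 (-0.37 ± 0.11), which form the matrix side of the complex, had nearly equal differences. The Rieske iron-sulphur protein Uqcrfs1, which takes the first electron from ubiquinol, had 10.20, 10.16 and 10.21 in AKR F1 and 10.63, 10.71 and 10.29 in DBA F1 (-0.35 ± 0.10, adjusted p = 0.145). The groups of all 4 genes did not overlap. Cytochrome c1 (Cyc1), which hands the electron to cytochrome c, had 10.62, 10.51 and 10.61 in AKR F1 and 11.05, 11.21 and 10.55 in DBA F1. DBA F1 replicate 3 lay within the AKR F1 range, and the difference was -0.36 ± 0.16 (adjusted p = 0.283), or -0.55 without that array. Uqcr11 (-0.24) and Uqcrb (-0.12) had smaller differences, and the hinge protein Uqcrh had the smallest of complex III (-0.11).

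In complex II, which is also succinate dehydrogenase of the tricarboxylic acid cycle, the 4 subunits had differences between -0.31 and -0.25. The iron-sulphur subunit Sdhb had 10.76, 10.71 and 10.80 in AKR F1 and 11.16, 11.21 and 10.84 in DBA F1 (-0.31 ± 0.096, adjusted p = 0.156). The flavoprotein subunit Sdha differed by -0.26 ± 0.091, and its groups did not overlap either. The membrane anchors Sdhc (-0.26 ± 0.12) and Sdhd (-0.25 ± 0.13) overlapped between groups through DBA F1 replicate 3, with 9.54 and 9.40 there against AKR F1 ranges of 9.48 to 9.63 and 9.42 to 9.54. Without DBA F1 replicate 3 all 4 were called, with limma adjusted p from 0.0162 (Sdhb) to 0.0347 (Sdha). That fit called 1.83% of all tested genes lower in AKR F1. In the main fit, and with any other single array left out, none of the 4 was called.

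In complex I, the 6 tested core subunits, which carry the flavin or iron-sulphur clusters or form the arm that holds them, had a median of -0.24, and 5 of the 6 did not overlap between groups. The 27 tested accessory subunits had a median of -0.14, and 8 of the 27 did not overlap. Over all tested genes 10.0% did not overlap and were lower in AKR F1. The core subunit Ndufs3 had 10.11, 10.16 and 10.18 in AKR F1 and 10.55, 10.64 and 10.26 in DBA F1 (-0.33 ± 0.094, adjusted p = 0.134). Ndufs1, which carries several iron-sulphur clusters, differed by -0.28 ± 0.098 and Ndufv1, the flavin subunit that oxidises NADH, by -0.26 ± 0.081. Ndufs7 and Ndufs8, which carry the clusters nearest to ubiquinone, had -0.16 and -0.15. Among accessory subunits the largest differences were those of Ndufb8 (-0.37 ± 0.11), the mitochondrial acyl carrier protein Ndufab1 (-0.34 ± 0.10) and Ndufa10 (-0.28 ± 0.10). Ndufb8, whose protein is lost readily when the complex is not assembled, had 10.41, 10.32 and 10.42 in AKR F1 and 10.77, 10.98 and 10.53 in DBA F1. At the other end Ndufa7 (-0.030) and Ndufa3 (-0.0086) had almost none. Ndufa3 had 11.13, 11.20 and 11.08 in AKR F1 and 11.19, 11.24 and 11.01 in DBA F1, and its groups overlapped.

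Complex IV divided by subunit. Cox5a and Cox5b, nuclear subunits that bind next to the catalytic core, had differences of -0.32 ± 0.095 and -0.31 ± 0.079 (adjusted p = 0.142 and 0.103). Cox5b had 11.55, 11.51 and 11.55 in AKR F1 and 11.86, 12.01 and 11.68 in DBA F1, without overlap. Ndufa4, which was first described in complex I and is now counted as a subunit of complex IV, had -0.20 ± 0.065, also without overlap. The main isoform of subunit 4, Cox4i1, had 12.13, 12.16 and 12.10 in AKR F1 and 12.33, 12.38 and 12.13 in DBA F1 (-0.15 ± 0.068, adjusted p = 0.285). Its paralogue Cox4i2, an isoform of lung and of oxygen-sensing cells, had 7.18, 7.27 and 7.21 in AKR F1 and 7.07, 7.15 and 7.35 in DBA F1. Here DBA F1 replicate 3 was the highest array, and the difference was 0.027 ± 0.083 (adjusted p = 0.897). Without DBA F1 replicate 1 it was -0.032. Cox6b2 (0.044) and Cox8c (-0.053), isoforms known from testis, likewise had no separation. The fourth tested isoform, Ndufa4l2, a paralogue of Ndufa4, did separate, with 8.59, 8.68 and 8.82 in AKR F1 and 8.86, 9.01 and 8.84 in DBA F1 (-0.20 ± 0.077, adjusted p = 0.223). Cox7a2l, which links complexes III and IV, had -0.088. The single-symbol probe set of Cox7c had a low signal (5.59 ± 0.18 SD in AKR F1 and 5.40 ± 0.041 SD in DBA F1, n = 3 each) and was the only named subunit of complex IV outside the isoforms with a positive difference (0.19 ± 0.10, adjusted p = 0.4).

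In complex V, the catalytic head subunits had -0.12 for Atp5a1 (alpha) and -0.18 for Atp5b (beta), and the central stalk subunit Atp5c1 (gamma) had -0.16. The small central stalk subunits Atp5e (epsilon) and Atp5d (delta) had the most negative differences of the complex, -0.28 ± 0.073 and -0.20 ± 0.064. Atp5e had 10.60, 10.57 and 10.64 in AKR F1 and 10.98, 10.94 and 10.72 in DBA F1 (limma adjusted p = 0.113), and the groups did not overlap. The 3 genes for the c-ring, which turns as protons pass, encode the same mature protein and had differences of -0.016 (Atp5g1), -0.091 (Atp5g2) and -0.017 (Atp5g3). Atp5g1 was high on 1 array only, with 9.75, 9.81 and 9.81 in AKR F1 and 10.02, 9.70 and 9.69 in DBA F1. The peripheral stalk subunit Atp5h had 11.48, 11.57 and 11.52 in AKR F1 and 11.58, 11.59 and 11.42 in DBA F1. Its difference was -0.0063 ± 0.056, the smallest of the 79 genes in size.

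Other probe sets of the same genes were set beside the brightest. Of the 155 tested member probe sets, 122 had a mean signal above 9, and 121 of these had a negative difference with a median of -0.19. In 35 genes with several such probe sets the spread between them had a median of 0.058, and in 34 of the 35 all had the same sign, the exception being Ndufa12 (-0.17 to 0.021). Among 24 tested probe sets with a mean below 7, 18 were negative with a median of -0.073. Cox5b, Ndufa12, Ndufab1, Ndufb2 and Ndufb9 had tested probe sets of both signs, and except for Ndufa12 the positive ones were dim.

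By limma 5 of the 155 tested probe sets were called, against 2.62% of all tested probe sets, and all 5 were lower in AKR F1 and none was the brightest of its gene. For Uqcr10, a small subunit of complex III, 1434340_at had 4.44, 4.57 and 4.59 in AKR F1 and 7.40, 7.46 and 7.04 in DBA F1. Every DBA F1 array, replicate 3 included, stood far above every AKR F1 array (-2.76 ± 0.12, limma adjusted p = 0.00014). The AKR F1 mean of this probe set (4.54) was under the cut for low signal (4.72), so it passed the filter only through the DBA F1 arrays. Its call is therefore given as a description, and the size of its difference is uncertain. With 60% of probe sets filtered out it was not tested. A second probe set, 1434341_x_at, had 6.10, 6.01 and 6.24 in AKR F1 and 7.24, 7.09 and 7.23 in DBA F1 (-1.07 ± 0.084, adjusted p = 0.00176). The brightest one, 1424364_a_at, had 10.35, 10.39 and 10.41 against 10.77, 10.79 and 10.41, with -0.27 ± 0.10 (adjusted p = 0.218). On this probe set DBA F1 replicate 3 lay at the AKR F1 level, as for Cyc1 but not for Uqcrq, Uqcrc1, Uqcrc2 or Uqcrfs1. The dimmer probe sets of Uqcr10 separated the crosses on all 6 arrays. Of these, 1434341_x_at was called with each array left out in turn, with limma adjusted p up to 0.0158. With AKR F1 replicate 3 alone against DBA F1, 1434341_x_at was not called (adjusted p = 0.061).

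The other 3 called probe sets had smaller differences, 1416366_at of Ndufc2 (-0.23 ± 0.037, adjusted p = 0.0266), 1434056_a_at of Ndufb6 (-0.36 ± 0.069, adjusted p = 0.0483) and 1437164_x_at of Atp5o (-0.35 ± 0.065, adjusted p = 0.0438). Each kept the call in 1 of the 6 fits with an array left out, and the adjusted p reached 0.121, 0.189 and 0.175 without AKR F1 replicate 1. All 3 calls also ended with eBayes moderation that did not follow signal level (adjusted p = 0.0781, 0.0741 and 0.0593). They ended too with a replicate block (0.0916, 0.0875 and 0.0731). Those of Ndufb6 and Atp5o ended without the filter (0.0553 and 0.0527). The Ndufb6 call ended as well with 60% of probe sets filtered out (0.05002). The Ndufc2 probe set had 10.56, 10.55 and 10.54 in AKR F1 and 10.77, 10.77 and 10.80 in DBA F1, so here DBA F1 replicate 3 was the highest array. For Sdha, the second bright probe set, 1426689_s_at, had 9.79, 9.71 and 9.71 in AKR F1 and 10.11, 10.40 and 10.01 in DBA F1 (-0.44 ± 0.098, limma adjusted p = 0.0762), and its 2 dim probe sets were below the filter level and not tested.

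**Figure D3:**
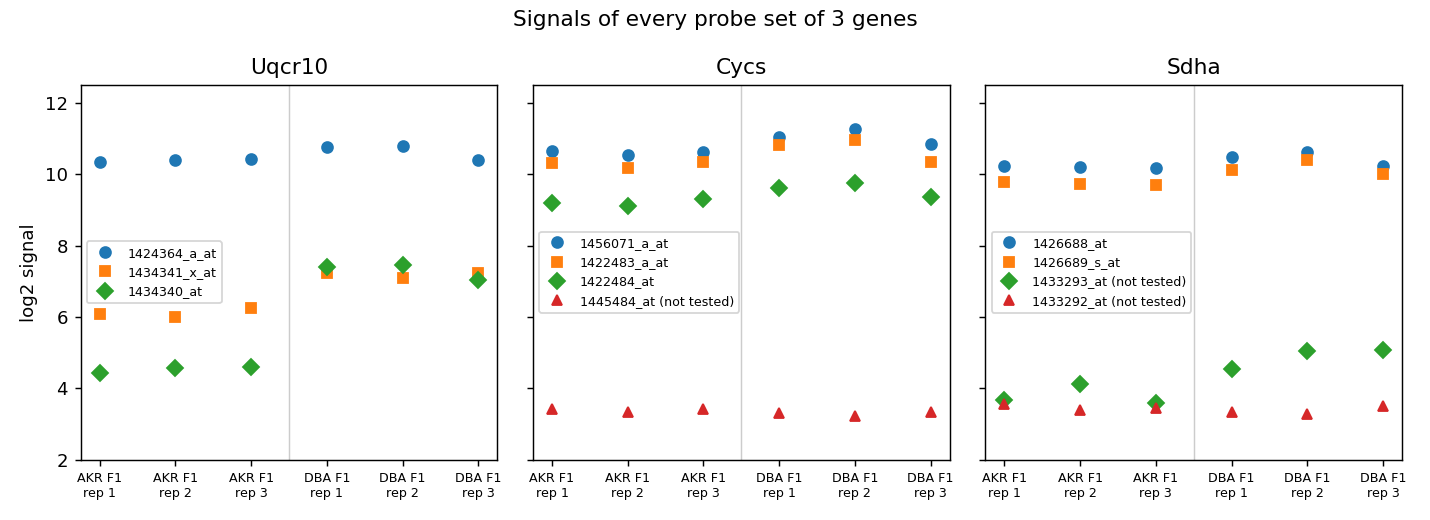
Log2 signal of every probe set of Uqcr10, Cycs and Sdha on the 6 arrays. The Uqcr10 probe set 1434340_at runs from 4.44 to 4.59 in AKR F1 and from 7.04 to 7.46 in DBA F1, while 1424364_a_at and the bright Cycs probe sets differ far less.

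Sequences before the start site are shown for 3 genes with differences of -0.31 or below and for Atp5h, which had almost none, since the members were high on the same arrays. RefSeq windows (GRCm38.p6) were found for 66 of the 81 genes, and the 250 bases before each start were searched on both strands for 4 motifs. Capitals mark every match, and each sequence reads 5′ to 3′ on the strand of the gene.
Cycs (chr6:50566570-50566819, minus strand): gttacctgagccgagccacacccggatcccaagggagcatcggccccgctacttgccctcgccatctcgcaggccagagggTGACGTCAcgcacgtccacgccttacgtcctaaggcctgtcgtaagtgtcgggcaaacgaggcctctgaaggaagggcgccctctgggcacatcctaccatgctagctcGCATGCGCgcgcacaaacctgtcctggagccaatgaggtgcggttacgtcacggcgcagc
Sdhb (chr4:140961021-140961270, plus strand): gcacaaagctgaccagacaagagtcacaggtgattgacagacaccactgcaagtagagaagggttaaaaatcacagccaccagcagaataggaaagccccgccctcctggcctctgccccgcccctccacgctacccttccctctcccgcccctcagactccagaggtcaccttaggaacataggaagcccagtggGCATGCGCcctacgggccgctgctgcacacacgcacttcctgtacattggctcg
Uqcrfs1 (chr13:30545317-30545566, minus strand): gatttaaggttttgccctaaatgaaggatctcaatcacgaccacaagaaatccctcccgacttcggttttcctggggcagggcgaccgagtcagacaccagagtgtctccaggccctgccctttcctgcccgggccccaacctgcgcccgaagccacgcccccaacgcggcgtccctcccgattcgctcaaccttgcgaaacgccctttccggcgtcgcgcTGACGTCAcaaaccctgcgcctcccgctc
Atp5h (chr11:115419920-115420169, minus strand): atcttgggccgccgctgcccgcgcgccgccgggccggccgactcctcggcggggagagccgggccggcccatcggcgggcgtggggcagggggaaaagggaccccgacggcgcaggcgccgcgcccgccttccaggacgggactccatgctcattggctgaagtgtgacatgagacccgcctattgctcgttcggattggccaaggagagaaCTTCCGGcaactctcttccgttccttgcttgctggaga

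The core of the nuclear respiratory factor 1 element, GCATGCGC, begins 60 bases before the start in Cycs and 54 in Sdhb. The cyclic AMP response element TGACGTCA begins 169 bases before the start in Cycs and 29 in Uqcrfs1, and the ETS core CCGGAAG, bound by GABP, is read on the other strand 38 bases before the start in Atp5h. GCATGCGC was found in 8 of the 66 genes, against 2.56% of all 27025 genes with a window, CCGGAAG in 12 against 7.83%, TGACGTCA in 4 against 1.77%, and the estrogen-related receptor element TCAAGGTCA in 1, Atp5g3, against 0.422%. Matches overlapped in 3 member windows. The median difference was -0.15 in tested genes with GCATGCGC and -0.17 in those without, -0.15 and -0.17 for CCGGAAG, and -0.32 and -0.16 for TGACGTCA (Cycs, Ndufa10, Ndufb2 and Uqcrfs1). These are descriptions of letters in 1 window, on small numbers of genes.

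Other mitochondrial genes showed which groups shared the pattern of the arrays. Of 17 tested enzymes of mitochondrial fatty acid oxidation, all 17 had a negative difference with a median of -0.52. The thiolase Acaa2 (-0.88 ± 0.15, limma adjusted p = 0.0302) was the 1 called, against 1.06% of all tested genes called lower. The mean of the 17 was 9.39, 9.29 and 9.31 in AKR F1 and 9.87, 10.18 and 9.52 in DBA F1. Acadvl, which acts on very long fatty acids, had -0.71 without a call, and Cpt1a, which commits fatty acids to the pathway, had -0.11. All 16 tested enzymes of the tricarboxylic acid cycle and pyruvate entry were negative with a median of -0.32, among them pyruvate carboxylase (Pcx, -0.63) and Idh3a (-0.56). Of the 16 enzymes 0 were called, and 8 were lower at an unadjusted p under 0.05, against 8.41% of all tested genes. The mean of the 16 was 9.48, 9.48 and 9.50 in AKR F1 and 9.87, 10.05 and 9.54 in DBA F1. Both lists were thus high on DBA F1 replicates 1 and 2, as the respiratory chain was.

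Lists of genes that build or fill mitochondria had medians nearer 0, with no test between lists, but most of them shared the array pattern in part. The 76 mitochondrial ribosomal proteins had a median of -0.060 with 56 negative and 0 called, and the 23 tested carriers, pores and import proteins had -0.073 with 17 negative and 0 called. DBA F1 replicates 1 and 2 lay above the other 4 arrays in 46.1% of the ribosomal proteins, 56.5% of the carriers, pores and import proteins, 42.9% of the assembly factors and 20.0% of the biogenesis regulators, against 10.3% of all tested genes. The 15 regulators of mitochondrial biogenesis had 0.020 with 6 negative and 0 called, among them the coactivators Ppargc1b (-0.28) and Ppargc1a (-0.24) and the mitochondrial transcription factor Tfb2m (0.17). At an unadjusted p under 0.05, 7 ribosomal proteins, 2 carriers, pores or import proteins and 0 biogenesis regulators were lower in AKR F1. These were 9.2%, 8.7% and 0% of each list, against 8.41% of all tested genes. Of 42 tested assembly factors 29 were negative with a median of -0.038, and 2 were called, against 2.48% of all tested genes in either direction. Ndufaf1, a complex I factor, was lower in AKR F1 (-0.45 ± 0.080, adjusted p = 0.0375), and Timmdc1, which also acts on complex I, was higher (0.61 ± 0.075, adjusted p = 0.0109). Timmdc1 had 6.57, 6.75 and 6.67 in AKR F1 and 6.11, 6.05 and 6.01 in DBA F1, a direction opposite to that of the subunits. The mitochondrially encoded subunits were represented by ND5 alone, with 12.52, 12.53 and 12.48 in AKR F1 and 12.62, 12.67 and 12.22 in DBA F1. As lists outside mitochondria, 48 cytosolic ribosomal proteins had a median of 0.0034 and 38 proteasome subunits 0.042. In each 1 gene was called, higher in AKR F1 (Rps6, 0.37, and Psmb6, 0.29), against the same 2.48% of all tested genes. Glycolysis enzymes, which are also outside mitochondria, were different: 13 of 14 were negative with a median of -0.27 and 0 called (7 lower in AKR F1 at an unadjusted p under 0.05), and in 9 of the 14 DBA F1 replicates 1 and 2 lay above the other arrays. Among them were muscle enolase Eno3 (-0.87) and hexokinase Hk2 (-0.61).

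Markers of tissues rich in mitochondria were compared on the same arrays. Ucp1, the brown fat uncoupling protein, had 7.88, 5.18 and 3.82 in AKR F1 and 10.11, 11.25 and 8.29 in DBA F1. Cidea had 7.88, 6.36 and 5.81 against 9.86, 10.54 and 8.09. Of the 3 isoforms left out of the members, Cox8b had 9.02, 8.56 and 9.06 against 10.90, 11.43 and 9.56, and Cox7a1 had 7.96, 7.86 and 8.02 against 9.11, 9.33 and 8.26. For Ucp1, Cidea, Cox8b and Cox7a1 DBA F1 replicate 2 was the highest array and DBA F1 replicate 3 the lowest DBA F1 array, as for Cycs. Among AKR F1 arrays Ucp1 and Cidea fell from replicate 1 to replicate 3, and the respiratory chain mean was 10.35, 10.35 and 10.36. The third left-out isoform, Cox6a2 of heart and skeletal muscle, had 8.91, 8.83 and 9.23 in AKR F1 and 9.58, 9.11 and 9.05 in DBA F1, so its groups overlapped and DBA F1 replicate 1 was highest. Among the 9 brown fat markers, 4 of 8 tested did not overlap and were lower in AKR F1, against 10.0% of all tested genes. By limma 0 were called, and 5 were lower at an unadjusted p under 0.05, against 8.41% of all tested genes. Zic1 was at background (not tested), and Dio2 (0.068) and Prdm16 (0.10) had no such difference. The mean of the 9 ranged from 5.69 to 6.34 in AKR F1 and from 6.50 to 7.73 in DBA F1. Of 8 measured white and general adipocyte markers 5 were called, all lower in AKR F1, against 1.06% of all tested genes. The list mean ranged from 7.88 to 8.43 in AKR F1 and from 9.11 to 9.80 in DBA F1. The part of these tissues in the respiratory chain values was not tested.

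Skeletal and heart muscle markers had other patterns. Skeletal alpha-actin (Acta1) had 7.48, 6.07 and 13.12 in AKR F1 and 12.43, 12.99 and 12.52 in DBA F1. On AKR F1 replicate 3 this transcript was thus as high as on the DBA F1 arrays. The respiratory chain mean was 10.36 on that array and 10.35 on both AKR F1 replicates 1 and 2. With AKR F1 replicate 3 alone against DBA F1 the median over the 79 genes was -0.17. The 11 skeletal muscle markers had means of 4.78 to 9.21 in AKR F1 and 8.53 to 9.03 in DBA F1, with Myh2 and Myh4 not tested. The 10 heart markers had 9.33 to 9.57 in AKR F1 and 9.35 to 10.73 in DBA F1, with 0 called (0 at an unadjusted p under 0.05), and DBA F1 replicate 1 was above DBA F1 replicate 2 for 9 of the 10. Their mean was 10.73 and 9.35 on those arrays, and the respiratory chain mean was 10.59 and 10.62. The part of skeletal or heart muscle in the respiratory chain values was not tested.

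**Figure D4:**
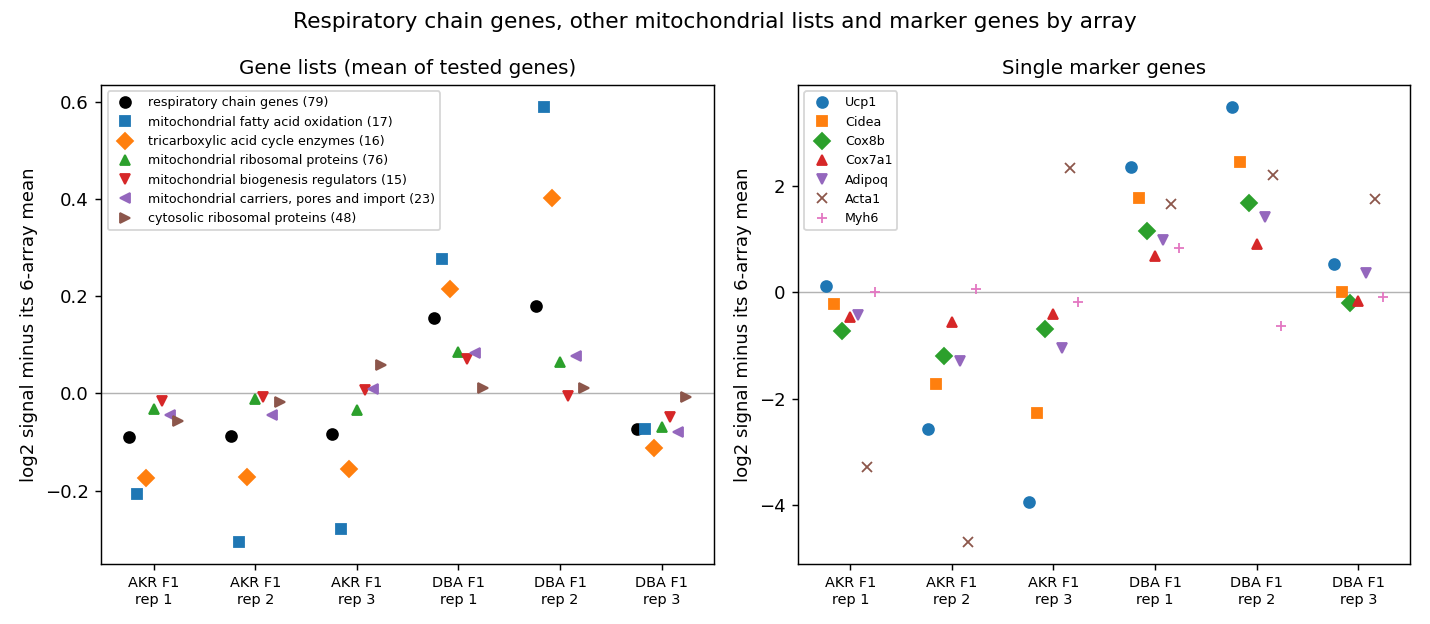
Mean log2 signal of gene lists (left) and log2 signal of single marker genes (right) on each array, minus the mean over the 6 arrays, with numbers of genes in the legend. The respiratory chain, fatty acid oxidation and tricarboxylic acid cycle means are highest on DBA F1 replicates 1 and 2, as are Ucp1, Cidea, Cox8b and Cox7a1, while Acta1 is also high on AKR F1 replicate 3.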

How the data were processed

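Total RNA from lung was hybridised to Affymetrix arrays by the authors, per the labels' protocols. The deposited table gives each probe set a log2 signal on each array. MAS5 and RMA are named, without versions, per the submitters' processing notes, and which of them made the table is not given in the sources used here. The log2 scale was read from the values, which were used as deposited. Precision is limited by the 3 arrays per group. Leaving out 64 control probe sets gave 45037, of which 34945 had 1 symbol in the platform annotation, 932 had several and 9160 had none. The 40% of probe sets with the lowest 6-array mean (up to 4.72) were not tested.

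A linear model with group as its only term was fitted with limma 3.58.1 (R 4.3.3), with eBayes moderation that followed signal level and two-sided tests, with Benjamini-Hochberg adjustment over all 27022 tested probe sets. The script was tested on simulated data. Complexes were assigned by hand from textbook knowledge. The members, the lists and the tests were chosen with earlier results of these data known. Named genes were those with the largest and smallest differences in each complex, the catalytic and redox subunits and genes with probe sets of both signs. Genes that failed the filter and called genes of the lists were also named. The called club cell and adipocyte markers were counted but not named. Ndufc2, Uqcr10, the testis isoforms, the promoters shown and other examples were added after their values were seen. Alternatives were other normalizations, filters, variance models and probe set summaries, weights per array, a block for replicate number, and arrays left out.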

Additional observations from a re-analysis of the deposited data

How the results depend on the processing

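The count of called respiratory chain genes was 0 with the main settings. It was 4 with array weights (Atp5e, Cox5b, Cycs and Ndufc2), 2 when probe sets were averaged by gene (Sdha and Uqcr10), 4 with the most variable probe set (Atp5o, Ndufb6, Ndufc2 and Uqcr10), and from 0 to 33 with 1 array left out, the latter without DBA F1 replicate 3. With every other alternative run it was 0. The count of negative differences ran from 69 to 76 of 79 and the median from -0.24 to -0.13 with 1 array left out. Over all tested probe sets the count of calls was 707, against 1198 with array weights, 85 for AKR F1 replicate 3 alone against DBA F1, and 198 to 1171 with 1 array left out.

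Some genes near 0 changed sign, and 0 of them were called. Ndufa12 was 0.078 by its most variable probe set. Atp5g1 was 0.0026 with array weights, 0.032 with the mean of probe sets and 0.0033 for AKR F1 replicate 3 alone, where Cox6b2 was -0.072. With 1 array left out, the differences ranged from -0.10 to 0.0058 for Ndufa12, from -0.080 to 0.011 for Ndufa7, from -0.076 to 0.037 for Ndufa3, from -0.032 to 0.11 for Cox4i2, from -0.033 to 0.10 for Cox6b2, from -0.073 to 0.091 for Atp5g1 and from -0.060 to 0.023 for Atp5h. The cause was not tested.

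The labels give both groups replicates 1 to 3. Deviations of arrays with the same number correlated at 0.31, -0.23 and -0.050, so no consistent pairing by number was evident. AKR F1 replicate 3 and DBA F1 replicate 2 also correlated at 0.31. A batch shared by number was not tested. With the replicate block 539 probe sets and 0 respiratory chain genes were called. The table holds no detection calls, so signals near the filter level have no stated background.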
